A study of Rattus norvegicus with 10 samples.

Results

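The IGHV6 subgroup is one family of immunoglobulin heavy chain variable genes, and its use was followed in the spleens of 10 Wistar rats. Its members were all productive reads whose first named IGHV gene begins with IGHV6, which gave 18091 of 1615896 productive reads and 9 of the 141 IGHV genes named. HuD animals (n = 5) received recombinant human HuD, a neuronal RNA-binding protein. DNP animals (n = 5) received keyhole limpet hemocyanin, a large carrier protein, modified with dinitrophenyl groups. All 10 animals had a first dose in complete Freund's adjuvant and 3 boosts in incomplete adjuvant, and no unimmunized animal was among them, so every comparison is between 2 immunized groups. Neither age nor sex of the animals is stated in the labels. Wistar rats are outbred and no genotypes were used here, so an allele or gene that only some animals carry cannot be told apart from a mutated residue or an unused gene. Each animal gave 1 library of heavy chain variable domains from total RNA of a whole spleen cell suspension, in which B cells of different stages are mixed. A read is 1 collapsed sequence with its molecular tag, and fewer cells using a gene cannot be told apart from less RNA per cell.

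The variable domain is assembled by joining a V, a D and a J gene segment. The V gene encodes the first and second complementarity-determining regions (CDR1 and CDR2), which are loops that can contact antigen, and the framework regions (FR) that hold them. The third loop (CDR3) spans the junction of V, D and J, so it helps to mark a rearrangement, although a short one can recur in different rearrangements. After exposure to antigen, B cells can expand as clones and acquire somatic mutations in the V region, which change residues away from the inherited sequence.

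The libraries held between 60647 and 259834 productive reads, with IGHV6 reads between 686 and 3879 per animal. Of 18086 combinations of tag and CDR3 among IGHV6 reads, 5 occurred in more than 1 library. Nearly all IGHV6 reads named a single gene, with 6 reads naming several genes, against 14.1% of all productive reads. Whether the named gene was the right one was not tested.

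The CDR1 and CDR2 sequences below are the most frequent in the reads of each gene with at least 100 reads, and are shown because they carry the residues by which the genes differ. They come from the deposited annotated reads and are consensus residues of these animals, not inherited reference sequences.
the IGHV6-6 CDR1: GFTFSTAW
the IGHV6-6 CDR2: IKAKSNNYAT
the IGHV6-8 CDR1: GFTFSNAW
the IGHV6-8 CDR2: IKAKSNNYAT
the IGHV6-13 CDR1: GFTFSTAW
the IGHV6-13 CDR2: IKDKSNNYAT
the IGHV6-14 CDR1: GFTFSTAW
the IGHV6-14 CDR2: IEDKSNNYFI
the IGHV6-21 CDR1: GFTFSDYW
the IGHV6-21 CDR2: IRNKANNYAT

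The CDR2 of this subgroup was long. It had 10 residues in 99.2% of IGHV6 reads, against 0.471% of all other productive reads. Only 2 other subgroups shared this length in most of their reads, IGHV7 with 99.3% and IGHV10 with 98.7%. IGHV6-6 and IGHV6-8 had the same leading CDR2 and differed in CDR1. Over the 98 residues of FR1 to FR3, the consensus of IGHV6-6 was identical to that of IGHV6-8 at 83.7% of residues. The closest pair was IGHV6-13 and IGHV6-8 with 89.8%, and IGHV6-21 stood farthest from the others, with identities between 70.4% and 74.5%.

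IGHV6 was a minor subgroup with a mean of 1.26% of productive reads. In HuD animals 1 to 5 its share was 2.04%, 0.671%, 1.10%, 0.532% and 0.521%, against 2.78%, 0.787%, 1.13%, 0.718% and 2.27% in DNP animals 1 to 5. The 95% Wilson interval of these shares was narrow, for example 2.70% to 2.87% in DNP1 and 0.491% to 0.553% in HuD5, and covers counting error only. HuD1, DNP1 and DNP5 stood above 2% while the other 7 animals stayed under 1.2%, and the groups overlapped. The difference of means, HuD minus DNP, was −0.564 percentage points (exact permutation test, two-sided, p = 0.238, adjusted p = 0.437 over the 11 IGHV subgroups). Without DNP1 the difference was −0.253 points. The animals of a group thus differed more from each other than the group means did.

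**Figure D1:**
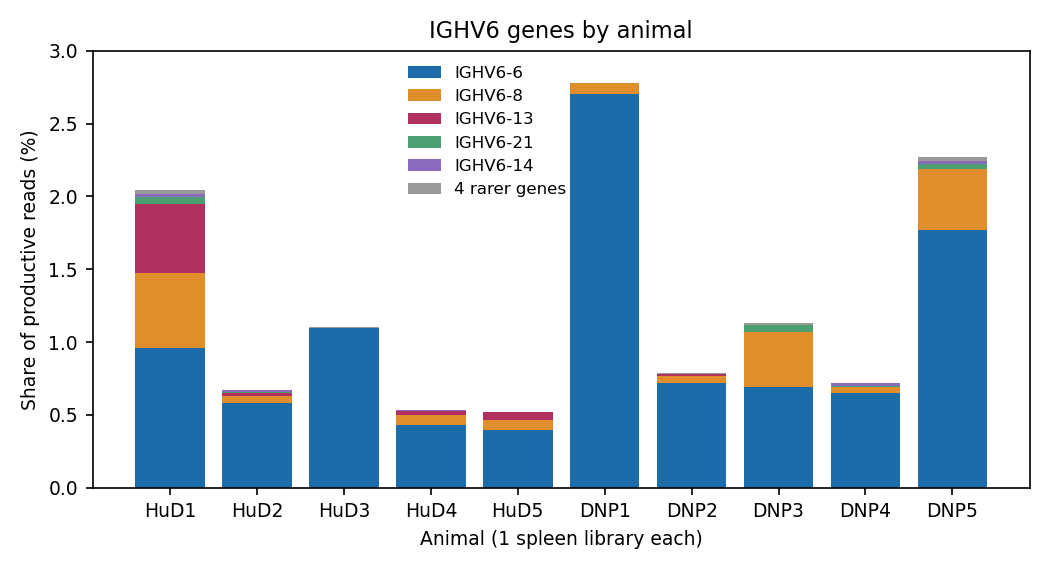
Share of productive reads (%, vertical axis) held by each IGHV6 gene in the 5 HuD animals (left) and the 5 DNP animals (right), with 1 spleen library each. IGHV6-6 is the largest part in all 10 animals and takes its lowest part in HuD1, with 47.1% of the IGHV6 reads. IGHV6-13 is visible mainly in HuD1.

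IGHV6-6 held most of the subgroup, with 14662 reads or 81.0% of all IGHV6 reads. It was found in all 10 animals and took between 47.1% of the IGHV6 reads in HuD1 and 99.4% in HuD3. HuD animals 1 to 5 had 1503, 1314, 1839, 788 and 829 IGHV6-6 reads, against 3774, 887, 420, 1688 and 1620 in DNP animals 1 to 5. As a share of productive reads, it averaged 0.694% ± 0.317 in HuD animals and 1.31% ± 0.912 in DNP animals (SD, n = 5 each), and the ranges overlapped. The log2 fold change of HuD over DNP was −0.88 (edgeR, adjusted p = 0.413), with −1.54 when HuD3 was left out and −0.53 when DNP1 was.

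IGHV6-8 was the second gene, with 2062 reads and 11.4% of the subgroup, and it was also seen in every animal. HuD animals 1 to 5 had 803, 109, 2, 134 and 135 reads, against 96, 62, 228, 107 and 386 in DNP animals 1 to 5. It was nearly missing in HuD3, whose 2 reads of 168098 contrast with 1839 reads of IGHV6-6 in the same library. In RPM, the productive reads scaled to the same total in each library, the mean was 1403 ± 2107 in HuD animals and 1914 ± 1900 in DNP animals (SD, n = 5 each), with HuD1 alone at 5138 RPM. The log2 fold change was −1.21 (edgeR, adjusted p = 0.530). Its sign rested on DNP3, without which the log2 fold change was 0.0020, and it became 1.27 when only sequences with at least 2 copies were counted.

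The remaining 7 genes gave few reads. IGHV6-13 had 955 reads in 8 animals, IGHV6-21 had 185 in 8, IGHV6-14 had 150 in 10 and IGHV6-10 had 64 in 7. IGHV6-5 (7 reads), IGHV6-22 (4 reads) and IGHV6-19 (2 reads) were at the limit of what these libraries can show. In DNP2, 1 of the 2 IGHV6-19 reads had the CDR3 AHPSY with IGHJ3, the pair with the most IGHV6-6 reads in that animal.

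IGHV6-13 is singled out here after its values were seen. Its reads came mostly from HuD animals, with 734, 39, 0, 51 and 112 reads in HuD animals 1 to 5, against 0, 16, 1, 1 and 1 in DNP animals 1 to 5. The 0 of 168098 reads in HuD3 allows a share of up to 0.00178%, and the 0 of 139441 reads in DNP1 a share of up to 0.00215%. HuD1, HuD2, HuD4 and HuD5 lay above all DNP animals, whereas HuD3 did not. The log2 fold change was 4.23, but it did not pass adjustment over the 81 IGHV genes tested (edgeR, adjusted p = 0.192). DESeq2 called it (adjusted p = 0.0314) while limma on log2(RPM + 10) did not (adjusted p = 0.117). Without DNP2 the log2 fold change was 7.02 (edgeR, adjusted p = 0.00589), and without HuD1 it was 2.41 (adjusted p = 0.393).

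In total, 0 of the 5 IGHV6 genes with enough reads for the test passed the threshold in edgeR, beside 2.47% of the 81 genes tested overall. At an unadjusted p under 0.05, edgeR had 1 of the 5 and 19 of all 81, and limma on log2(RPM + 10) had 1 of the 5 and 23 of all 81. After adjustment limma called 0 of the 5 and 16 of all 81, and DESeq2 called 1 of the 5 and 14 of all 81.

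A clone was defined as the reads of 1 animal with the same IGHV gene, IGHJ gene and CDR3 residues, and each clone was given the same weight. There were 2933 IGHV6 clones against 391440 clones of all other subgroups. IGHV6-6 had 1916 of them, IGHV6-8 had 652 and IGHV6-13 had 196. Clones seen as a single read made up 71.8% ± 4.18 of IGHV6 clones and 72.6% ± 3.06 of the other clones (SD over 10 animals).

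The CDR3 of IGHV6 clones was short. Its mean length was 10.6, 9.31, 8.37, 9.50 and 9.45 residues in HuD animals 1 to 5, and 8.97, 9.59, 9.28, 9.63 and 9.23 residues in DNP animals 1 to 5. The other clones of the same animals had means between 11.5 and 12.5 residues, so there was no overlap between IGHV6 and the rest. IGHV6 clones were shorter by a mean of 2.70 residues, with 10 of 10 animals in this direction (difference −2.70, exact sign-flip permutation test, two-sided, p = 0.00195, the smallest it can give). IGHV6 had the shortest mean of the 11 subgroups with 9.39 residues, followed by IGHV10 with 10.1 residues. Without IGHV6-6 the difference was −1.78 residues (exact sign-flip permutation p = 0.00195), and with each read counted once it was −4.12 residues. Between the antigens, HuD minus DNP was 0.100 residues over all IGHV6 clones (exact permutation p = 0.778), and −0.182 residues without HuD1. Over the clones of the other IGHV6 genes, without IGHV6-6, it was 0.879 residues (exact permutation p = 0.0397).

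Very short loops were most frequent in IGHV6-6 but were also found in some other genes of the subgroup. Clones with at most 5 residues made up 24.8% ± 5.16 of IGHV6-6 clones (SD, n = 10) and 6.78% ± 3.16 of IGHV6-8 clones (SD, 9 animals with at least 10 clones of that gene). They made up 15.2% ± 15.4 of IGHV6-13 clones (SD, n = 5), with 0% to 40% per animal, and 14.4% ± 5.41 of IGHV6-14 clones (SD, n = 2). In IGHV6-21 they made up 0% of clones in the 3 animals with at least 10 clones of that gene. Among all other subgroups they made up 1.56% ± 0.612 (SD, n = 10). In IGHV6 as a whole, their share per animal lay between 12.6% and 27.3% of clones, and between 31.0% and 75.0% of reads. After joining clones of 1 animal that differed by no more than 1 residue, 2197 IGHV6 clones were left, and the share of clones with at most 5 residues was still between 8.28% and 20.9%, against 1.10% to 2.14% in the rest. IGHV6-8 was longer than IGHV6-6 by 1.71 residues in the 9 animals with enough clones of both genes (exact sign-flip permutation p = 0.00781, longer in 8 of 9 animals).

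**Figure D2:**
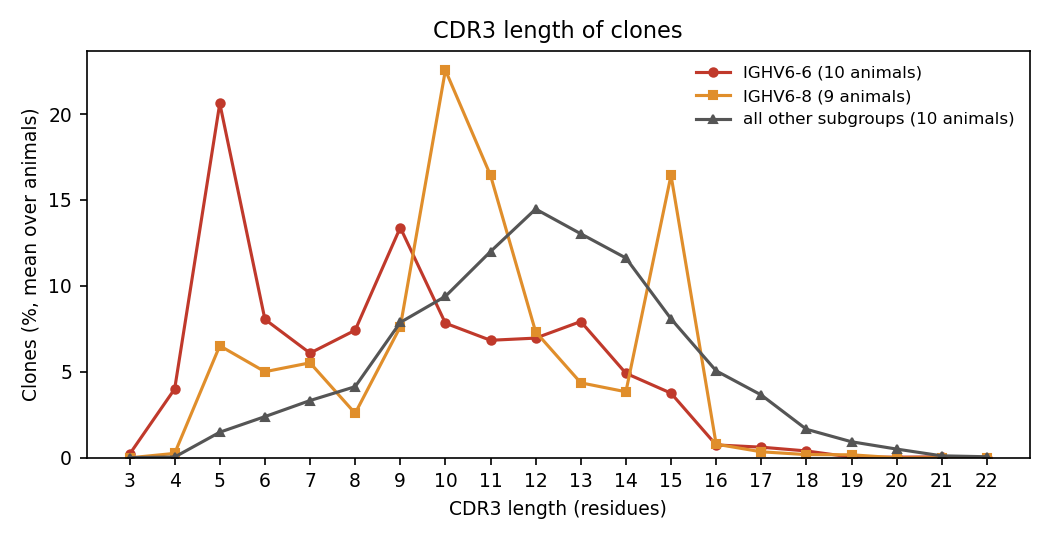
Share of clones (%, mean over animals) against CDR3 length in residues for IGHV6-6, IGHV6-8 and all other subgroups. IGHV6-6 has its peak at 5 residues with 20.6% of clones, where the other subgroups have 1.49%, and IGHV6-8 has peaks at 10 residues with 22.6% and at 15 residues with 16.4%.

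The first residues of the CDR3 also set the genes apart. Alanine followed by arginine opened 7.85% ± 3.35 of IGHV6 clones, against 47.6% ± 2.33 of the other clones (SD, n = 10). IGHV6-6 clones began with alanine in 78.5% ± 3.39 of cases (n = 10), whereas IGHV6-8 clones began with threonine in 47.9% ± 11.7 and had tryptophan as second residue in 52.1% ± 6.65 (SD, n = 9). Threonine also opened 59.6% of IGHV6-13 clones (n = 5), 58.1% of IGHV6-14 (n = 2) and 86.2% of IGHV6-21 (n = 3), against 7.98% of IGHV6-6. Tryptophan was second in 29.7% of IGHV6-6 clones and 30.6% of IGHV6-14 clones, against 4.68% in IGHV6-13 and 0% in IGHV6-21. These residues lie at the V gene end of the loop, and are described without a test.

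The IGHJ gene supplies the far end of the CDR3 and the last framework. IGHV6 clones used IGHJ2 most, with 51.2% ± 6.80, near the 51.8% ± 2.65 of the other clones (SD, n = 10). IGHJ3 was joined to 31.8% ± 7.75 of IGHV6 clones and 23.3% ± 1.94 of the others, a difference of 8.49 percentage points (exact sign-flip permutation, adjusted p = 0.0156 over 4 IGHJ genes, higher in 8 of 10 animals). IGHJ1 was joined to 5.26% ± 1.81 of IGHV6 clones and 10.04% ± 0.856 of the others, a difference of −4.78 points (adjusted exact permutation p = 0.00781, lower in 10 of 10 animals). Both differences lost their call when each read had the same weight, with adjusted exact permutation p = 0.480 for IGHJ3 and 0.203 for IGHJ1.

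The genes of the subgroup paired differently. IGHV6-8 clones used IGHJ3 in 55.9% of cases, against 23.0% for IGHV6-6 in the same 9 animals, and IGHJ2 in 32.0% against 59.2%. The differences were 32.9 and −27.1 percentage points, in the same direction in 9 of 9 animals (exact sign-flip permutation, adjusted p = 0.00521 each over 4 measures compared between these genes, chosen after the values were seen).

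IGHJ4 differed between the antigens. It was found in 4.32%, 6.11%, 11.8%, 4.07% and 7.03% of the IGHV6 clones of HuD animals 1 to 5, against 18.1%, 13.8%, 13.1%, 22.5% and 16.5% in DNP animals 1 to 5. All HuD animals were below all DNP animals. The difference was −10.1 percentage points (exact permutation p = 0.00794, the smallest it can give, adjusted p = 0.0317 over 4 IGHJ genes). In the other clones IGHJ4 had 13.6% ± 2.34 in HuD animals and 16.1% ± 3.56 in DNP animals (SD, n = 5 each), a difference of −2.51 points (exact permutation p = 0.206). The difference within IGHV6 and that in the rest were −7.63 points apart (exact permutation p = 0.00794, adjusted p = 0.0317). It was also seen inside IGHV6-6, where HuD animals had 4.35% to 10.9% and DNP animals 13.6% to 25.9% of clones with IGHJ4. It rested on few clones, between 11 and 26 IGHV6 clones with IGHJ4 per HuD animal and between 18 and 84 per DNP animal. The call was lost with clones of at least 2 reads (−9.71 points, adjusted exact permutation p = 0.254) and without any 1 of the DNP animals (−8.72 to −11.1 points, adjusted exact permutation p = 0.0635 each).

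**Figure D3:**
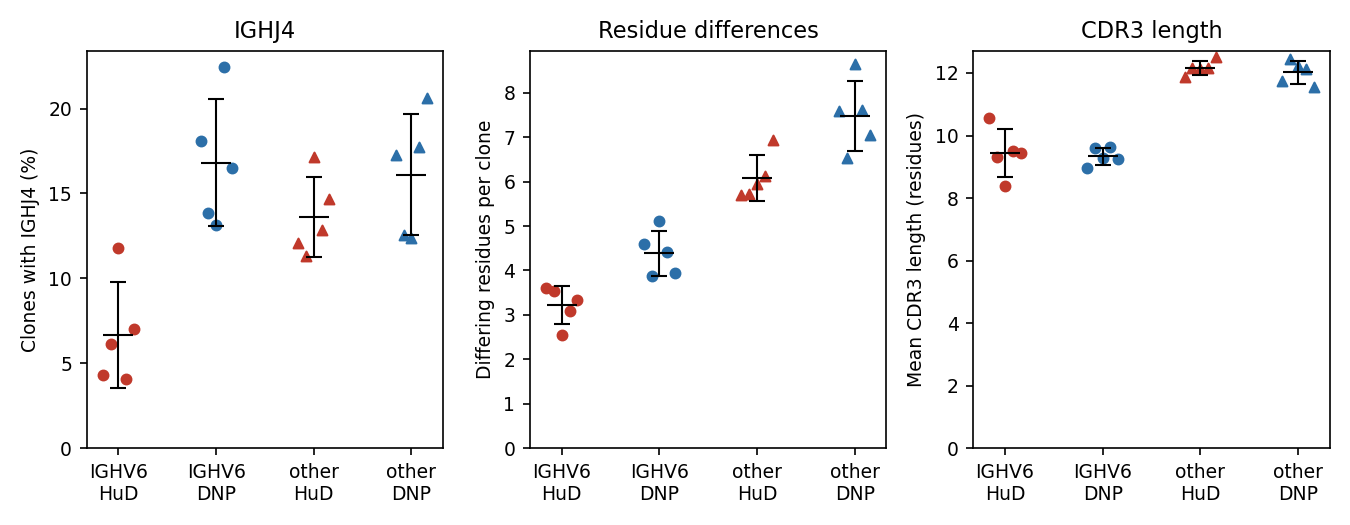
Values per animal for IGHV6 clones (circles) and all other clones (triangles), with HuD in red left of DNP in blue and the mean ± SD of 5 animals in black. The panels show the share of clones with IGHJ4 (%), the differing residues per clone in the V region, and the mean CDR3 length in residues. For IGHV6 clones, the HuD and DNP animals do not overlap in the first and second panels, and in the second panel the other clones are shifted in the same direction.

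Residue differences were counted against the most frequent residue of the same gene, over the positions from 4 to the end of FR3 in IMGT numbering, a scheme in which equivalent positions of all V genes share a number. The measure stands for departure from the commonest sequence, inherited alleles included, because the germline sequences of these animals were not used here. Some forward primers of the mixture reach positions 4 and 5, so residues written by a primer may be counted there, which was not tested. In IGHV6-6 these positions had another residue in a mean of 9.11% and 7.35% of clones. In HuD animals 1 to 5, IGHV6 clones differed by a mean of 3.61, 3.53, 2.55, 3.09 and 3.34 residues, against 4.60, 3.87, 5.12, 4.41 and 3.95 residues in DNP animals 1 to 5. All HuD animals were below all DNP animals, with a difference of −1.16 residues per clone (exact permutation p = 0.00794, the smallest it can give).

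The other clones of these animals shifted in the same direction. They had 6.09 ± 0.510 differing residues in HuD animals and 7.48 ± 0.788 in DNP animals (SD, n = 5 each), a difference of −1.40 (exact permutation p = 0.0159). The difference between these 2 values was 0.233 residues (exact permutation p = 0.484). Within IGHV6, it was −1.06 residues for IGHV6-6 clones alone (exact permutation p = 0.0397). With each read counted once it was −0.910 residues, which did not pass the threshold (exact permutation p = 0.0952).

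IGHV6 clones differed from their consensus at fewer residues than the other clones did, by a mean of −2.98 residues in 10 of 10 animals (exact sign-flip permutation p = 0.00195, the smallest it can give). Their mean of 3.81 residues was the lowest of the 11 subgroups, with IGHV11 next at 4.88 residues from only 14 clones. The genes were not alike, since IGHV6-8 clones had 5.52 differing residues and IGHV6-6 clones 3.23 in the same 9 animals (difference 2.29, exact sign-flip permutation p = 0.00391, higher in 9 of 9 animals). In IGHV6-6 the differing residues amounted to 5.10% of CDR2 residues, 4.18% of FR3, 2.97% of CDR1, 2.18% of FR1 and 1.99% of FR2. In IGHV6-8 the CDR1 was the most varied part with 12.9% of its residues, followed by CDR2 with 7.22%.

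Single positions were tested in genes with at least 10 clones in every animal, which left IGHV6-6 as the only gene of the subgroup. None of its 18 positions with a mean of at least 5% passed adjustment over the 1557 positions of 42 genes, of which 0% were called. At an unadjusted exact permutation p under 0.05 there were 4 of 18 in IGHV6-6 and 306 of 1557 overall. A call would need at least 248 positions at the smallest p that 5 against 5 animals can give, and 63 had it, so smaller sets of changes could not be called here. Of the 18 positions, which come from the same clones and are not independent, 16 had a lower mean in HuD animals. The matching share over all 1557 positions is not given here. Clones of the other subgroups also had fewer differing residues in HuD animals, with a mean of 6.09 against 7.48 in DNP animals.

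**Figure D4:**
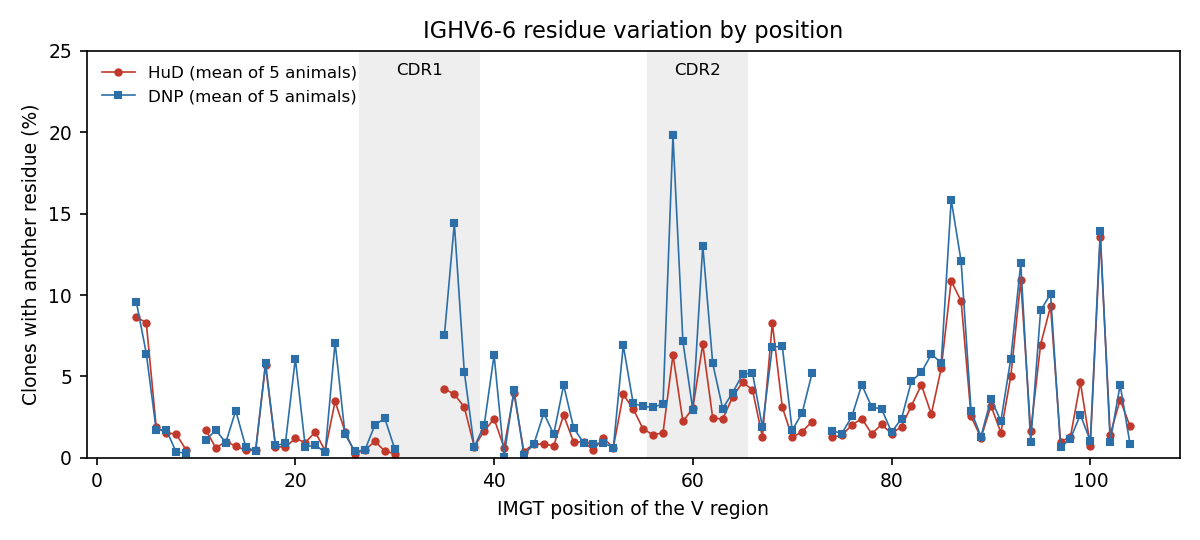
Share of IGHV6-6 clones (%, mean of 5 HuD animals in red and of 5 DNP animals in blue) with a residue other than the commonest, against IMGT position, with CDR1 and CDR2 shaded. At position 58, where the DNP mean is highest, the mean is 6.32% in HuD animals and 19.8% in DNP animals.

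The 5 most varied positions of IGHV6-6 were 101, 86, 58, 93 and 87, and their commonest changes were I101T, S86T, A58P, N93S and I87V (consensus residue, IMGT position, other residue). Positions 101, 86, 93 and 87 lie in FR3, with means between 10.8% and 13.7% over the 10 animals. Position 58 lies in CDR2. There the share of clones with another residue was 8.39%, 6.70%, 4.30%, 4.62% and 7.61% in HuD animals 1 to 5, against 40.1%, 5.66%, 14.9%, 18.5% and 19.8% in DNP animals 1 to 5. DNP2 fell among the HuD animals and the other 4 DNP animals lay above them (exact permutation p = 0.0317, adjusted p = 0.224). Position 36 in CDR1, with T36S as commonest change, averaged 3.91% ± 2.31 in HuD animals and 14.4% ± 7.87 in DNP animals (SD, n = 5 each, exact permutation p = 0.0159, adjusted p = 0.190).

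The A58P change was widespread in reads of some animals. It was in 0.333%, 3.96%, 1.58%, 6.47% and 2.41% of the IGHV6-6 reads of HuD animals 1 to 5, against 57.1%, 0.113%, 5.24%, 27.7% and 21.4% in DNP animals 1 to 5. It gave the second most frequent CDR2 of the gene, which is shown with the leading one to place the change at the third residue.
the IGHV6-6 CDR2, leading: IKAKSNNYAT
the IGHV6-6 CDR2, second: IKPKSNNYAT
In DNP1, 91.1% of the reads with the CDR3 of its largest clone carried A58P and 79.7% carried T36S, and A58P was still in 28.9% of the DNP1 reads of IGHV6-6 with another CDR3. It occurred with 105 different CDR3 sequences in DNP1, 63 in DNP4 and 37 in DNP5.

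IGHV6-8 was left out of this test because HuD3 had only 2 of its clones. Over the other 9 animals its 5 most varied positions were 36, 87, 93, 61 and 35. At position 36 a mean of 56.4% of clones had another residue than the consensus asparagine, most often by N36Y with 28.8%. The CDR1 with this change was nearly as frequent as the leading one, with 571 reads against 630, and both are shown for that reason.
the IGHV6-8 CDR1, leading: GFTFSNAW
the IGHV6-8 CDR1, second: GFTFSYAW
Position 36 had another residue in 60.6% to 71.9% of clones in the 4 HuD animals. DNP1, DNP3, DNP4 and DNP5 lay below them with 34.7%, 50.3%, 31.4% and 38.7%, whereas DNP2 lay above them with 89%. This difference between the antigens was not tested. At positions 87 and 93 the commonest changes were V87I and S93N, which give the residues that lead in IGHV6-6.

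In each animal the most abundant IGHV6 clone used IGHV6-6, and 9 of these 10 clones had a CDR3 of 4 or 5 residues. Their CDR3 sequences are listed because they show how short the loop is in the clones with the most reads.
animal HuD1: ATPGH
animal HuD2: ASVY
animal HuD3: AWDV
animal HuD4: AHYE
animal HuD5: ALESD
animal DNP1: AWPST
animal DNP2: AHPSY
animal DNP3: AWDYE
animal DNP4: ASPGA
animal DNP5: AGTPNYKGY
None of the 10 was found among the IGHV6 reads of another animal. The clone of DNP1 was the largest of IGHV6-6, with 1707 reads, IGHJ2 and 421 different amino acid sequences of FR1 to FR3. It held 44.0% of the IGHV6 reads of that animal. The largest clone of IGHV6-8 had a CDR3 of 15 residues with IGHJ3 and 193 reads in HuD1, or 24.0% of the gene in that animal. Of the 31 IGHV6 clones with at least 100 reads, 27 used IGHV6-6 and 19 had a CDR3 of at most 5 residues.

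The largest clone took 10.5%, 11.2%, 28.1%, 14.1% and 14.8% of the IGHV6 reads in HuD animals 1 to 5, against 44.0%, 35.7%, 18.7%, 14.6% and 11.1% in DNP animals 1 to 5. The groups overlapped, and the difference was −9.07 percentage points (exact permutation p = 0.222), or −4.28 points without DNP1. At an equal depth of 686 IGHV6 reads, HuD animals had 176 ± 42.4 clones and DNP animals 140 ± 33.2 clones (SD, n = 5 each), a difference of 36.2 clones (exact permutation p = 0.159). HuD3 had 103 clones, and without it the difference was 55.7 clones (exact permutation p = 0.0159).

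Most IGHV6 CDR3 sequences were seen in a single animal. Of 2516 different sequences, 96.1% were found in a single animal and 99 in at least 2. Single reads made up 71.8% of IGHV6 clones, so a sequence missing from a library can still be present in that animal. Those shared by at least 2 animals had a mean length of 7.49 residues, against 9.83 residues for those of a single animal. Of the 99 shared sequences, 45 were found with both antigens, 28 in HuD animals only and 26 in DNP animals only. Since 71 of the 99 were in exactly 2 animals, many can fall within 1 antigen by chance. Neither this split nor the share found in a single animal is given here for the other subgroups. The 10 CDR3 sequences found in the most animals are shown with that number, because they are the most widely shared of the subgroup. Of the 7 found in 4 animals, the 4 with the most reads are included.
in 8 animals: AWTGY
in 6 animals: ASPSY
in 6 animals: IWDYRNWFPY
in 5 animals: ASPGY
in 5 animals: ARGFDY
in 5 animals: AWWDY
in 4 animals: AWPGD
in 4 animals: ASYD
in 4 animals: TWEGY
in 4 animals: AYYDGSYYFDY
AWTGY had 16, 8, 4, 5 and 5 reads in HuD animals 1 to 5, against 8, 2, 0, 2 and 0 reads in DNP animals 1 to 5. It was thus in all 5 HuD animals and in 3 DNP animals. AWTGY was joined to 2 IGHJ genes, so a shared CDR3 need not stand for the same rearrangement. ASPGY had 6 reads in HuD4 and none in the other HuD animals, against 46, 19, 51 and 57 reads in DNP animals 2 to 5. ASYD and TWEGY were in 4 HuD animals each and in no DNP animal. ASYD had 286, 44, 18 and 1 reads in HuD animals 1 to 4, and TWEGY, carried by IGHV6-14, had 11, 2, 5 and 3 reads in HuD1, HuD3, HuD4 and HuD5. These sequences were picked by their sharing, so their distribution over the antigens is a description.

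IWDYRNWFPY, mostly with IGHV6-8, belonged to a wider set of similar loops, which was examined after its values were seen. Among IGHV6-8 reads, 270 reads with 46 different 10-residue CDR3 sequences differed from it at no more than 3 residues. They came from 8 animals and 90.7% of them used IGHJ3. Their share of IGHV6-8 reads was 6.42%, 32.8% and 35.6% in HuD2, HuD4 and HuD5, against 9.38%, 43.5%, 49.6%, 6.54% and 3.89% in DNP animals 1 to 5. HuD1 had 0 of 803 reads and HuD3 had 0 of 2 reads. The set was thus found with both antigens. Of the reads of all other subgroups, 4 had a CDR3 of this length with the same first 4 residues. That criterion differs from the one used for IGHV6-8 reads, and some members of the set do not meet it. The V gene end of the loop also differs between genes, so the counts cannot be compared. The most frequent members after the public one are shown to make the likeness visible.
with 45 reads in 1 animal: IWDYRNWFPN
with 16 reads in 2 animals: IWDYKNHFDY
with 16 reads in 1 animal: IWDYTNWFPY

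Animals given the same antigen shared more of their IGHV6 repertoire. For a pair of animals, the overlap was the geometric mean of the shares of IGHV6 reads held by their common CDR3 sequences. Its median was 3.32% in the 10 pairs of HuD animals and 4.42% in the 10 pairs of DNP animals, against 1.50% in the 25 mixed pairs. The ranges overlapped widely, with 1.20% to 10.2% in HuD pairs, 0.267% to 9.86% in DNP pairs and 0.0887% to 9.82% in mixed pairs. The mean distance, −log10 of the overlap, was larger by 0.438 between than within antigens (one-sided exact permutation test over every division into groups of 5, p = 0.0159). The reads of all other subgroups showed a difference of 0.470 in the same test (exact permutation p = 0.00794).

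**Figure D5:**
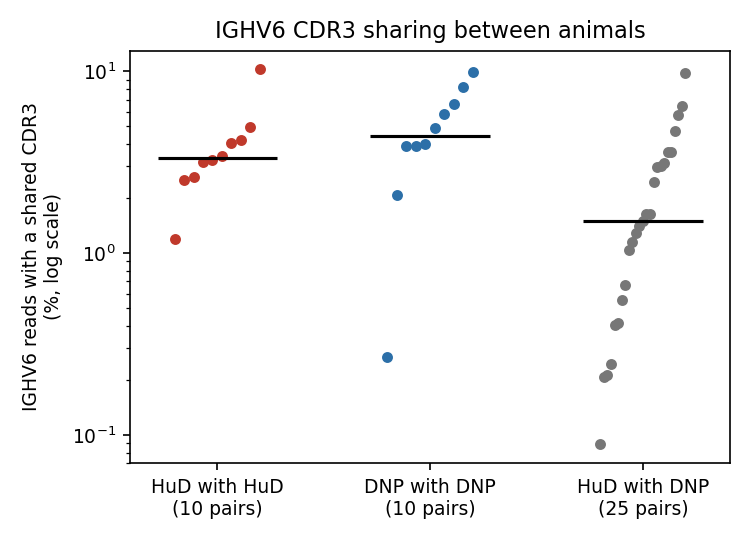
Overlap of IGHV6 CDR3 sequences (%, log scale) for every pair of animals, by antigen, with the median of each set as a black line. The medians are 3.32% for HuD pairs, 4.42% for DNP pairs and 1.50% for mixed pairs, and single mixed pairs reach 9.82%.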

How the data were processed

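Heavy chain variable domains were sequenced from the spleens of 10 rats, with 1 library per animal. The authors joined paired reads in PEAR and merged those of 1 tag by MIGEC, keeping tags with a UMI count of 1 and adding 10 bases of the CDR3 to each tag. High-VQuest then named genes and segments. Versions and germline release: not given in the sources used here. The deposited count of each sequence, its sequenced copies, served only as an alternative. Each collapsed sequence was 1 read. Because the minimum UMI count was 1, sequencing errors in single-copy reads can add residue differences and single-read clones. The IGHV6 reads, the gene lists and the comparisons were chosen with earlier results of these data known.

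The scripts ran in Python 3.11.15 with pandas 2.3.3, numpy 2.4.6, scipy 1.17.1 and matplotlib 3.10.9. Groups were compared by exact permutation over the 252 sets of 5 animals (two-sided), IGHV6 with the rest by exact sign-flip permutation over 1024 sign sets, and sharing over 126 splits (one-sided). Numbers of reads of the 81 IGHV genes with at least 100 reads were fitted with edgeR 4.0.16 (quasi-likelihood, TMM, Benjamini-Hochberg, threshold 0.05) in R 4.3.3, with limma 3.58.1 and DESeq2 1.42.0 as alternatives. On simulated counts of these 81 genes, edgeR recovered 50.8% of 20 genes changed by a fold of 8, with 2.87% of its calls false. The simulation gave every gene the same assumed spread between animals, which was not estimated from these data. At that spread smaller differences are hard to detect, and the value is not that of any single IGHV6 gene. P-values between the groups rest on the spread between animals, and those of sign flips on the differences within each animal. Those of sharing rest on distances between pairs of animals. Every IGHV6 gene was listed, genes with at least 1000 reads were described in full, and clones, shared CDR3 sequences and the 5 most varied positions were taken by rank. Unproductive reads were not used in comparisons.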

Additional observations from a re-analysis of the deposited data

Results flagged for a closer look

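In groups of 5 animals, an animal was noted when its gap to the nearest other animal exceeded 0.71 of the range of the group. For normally distributed values, chance gives this in about 1 of 20 groups. It held in 6 of 28 groups. Shares with zeros are not normally distributed and several measures depend on each other, so this number cannot be set against that rate. HuD1 stood apart from the other HuD animals in IGHV6-13, with 0.470% of productive reads against at most 0.0540% in the others, in IGHV6-21 with 0.0538% against at most 0.00623%, and in IGHV6-8 with 0.514% against at most 0.0728%. DNP2 stood apart from the other DNP animals in IGHV6-13, with 0.0129% against at most 0.00165%. HuD3 had the largest leading clone of the HuD animals, with 28.1% of its IGHV6 reads against 10.5% to 14.8%, and the fewest clones at equal depth, with 103 against 181 to 212.

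The difference in IGHJ4 between HuD and DNP animals was larger in IGHV6 clones than in the other clones, with −7.63 percentage points between them (exact permutation p = 0.00794, adjusted p = 0.0317 over 4 IGHJ genes). Reads called unproductive were outside the comparisons, and 2033 of them named an IGHV6 gene. They amounted to 4.70%, 0.640%, 1.52%, 0.741% and 0.372% of the unproductive reads in HuD animals 1 to 5, against 4.48%, 0.509%, 1.48%, 0.767% and 3.32% in DNP animals 1 to 5.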

How the results depend on the processing

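The direction of the IGHV6 share, of the shorter CDR3 and fewer residue differences of IGHV6 clones against the rest, of the sharing and of the IGHV6-6 fold change held under every alternative run for each. The lower residue differences in HuD animals held their call when each animal was left out in turn (−1.29 to −0.982), but not with each read counted once (−0.910) or with sequences of at least 2 copies (−1.85). Weighting by reads also weakened IGHJ1 (−4.22 points) and IGHJ3 (3.30 points) against the rest and turned IGHJ2 (5.57 points), and at least 2 copies did the same (−4.69, 1.14 and 9.47 points). At least 2 copies also weakened IGHJ4 between the antigens (−10.4 points), turned IGHJ2 (−0.761 points) and turned IGHV6-8 usage (log2 1.27), and clones of at least 2 reads weakened IGHJ4 (−9.71 points). The causes were not tested. Joining similar CDR3 sequences, chosen after seeing the data, turned the differences between the antigens in CDR3 length (−0.107 residues) and IGHJ1 (0.355 points), and leaving out IGHV6-6 raised that in length (0.879 residues, exact permutation p = 0.0397).

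With 1 animal left out, HuD minus DNP ranged over −0.182 to 0.367 residues for CDR3 length (turned without HuD1), −0.712 to 0.689 points for IGHJ1, 3.96 to 9.44 points for IGHJ2 (called without HuD5, adjusted exact permutation p = 0.0159), −11.4 to −8.72 points for IGHJ4 and 26.5 to 55.7 for clones at equal depth. Against the rest, IGHJ2 ranged over −1.65 to 0.362 points and IGHJ4 over −3.99 to −2.49 points (called without DNP4, adjusted exact permutation p = 0.0417). The log2 fold change ranged over 2.41 to 7.02 for IGHV6-13, −3.98 to 0.0632 for IGHV6-21 (turned without DNP3) and −2.48 to 0.0020 for IGHV6-8, and 0 to 1 IGHV6 genes were called. DESeq2 called 1, and IGHV6-13 had a log2 fold change of 4.43 there. Over all 81 genes the calls numbered 2 in edgeR, 14 in DESeq2, 16 in limma with a pseudocount of 10, 15 with a pseudocount of 1, 13 with the replicate block and 30 without DNP2, against 0 without any one of HuD1, HuD2, HuD4 and HuD5. The median log2 fold change of all genes was 0.13 with TMM, 0.28 with DESeq2 size factors and 0.47 with library totals.

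A number shared by a HuD and a DNP animal names no common origin, and their deviations had correlations between −0.144 and 0.289, so the replicate block has no basis in the design. With it, the IGHV6 share had the same difference of −0.564 points (exact permutation over pairs, p = 0.0625, the smallest 5 pairs can give) and edgeR called 0 IGHV6 genes.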

Other observations

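In all, 10 CDR3 sequences were found in at least 3 animals of 1 antigen and in none of the other, ASYD and TWEGY among them. Those of HuD animals were short, with ASDY (1, 9 and 1 reads in HuD1, HuD2 and HuD3) and AWNY (1, 3 and 1 reads in HuD1, HuD2 and HuD5) as further examples. Those of DNP animals included ATYYGYNYWYFDF with 149 reads in DNP4, 3 in DNP1 and 1 in DNP3, AWDRAMDA with 35 reads in DNP4, 4 in DNP1 and 2 in DNP3, and ASPGF with 4, 11 and 4 reads in DNP2, DNP4 and DNP5. All 10 were picked by this distribution and not tested, and the matching number for the other subgroups is not given here.

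Across the 10 animals, the genes of the subgroup did not follow IGHV6-6 as a block. The highest correlation of log2(RPM + 10) was that of IGHV6-21 with IGHV6-8 (Pearson r = 0.71), and the lowest that of IGHV6-13 with IGHV6-6 (r = −0.49), over 10 animals whose values share the library total. IGHV6 reads also had fewer copies than the rest in all animals, with 1.03 to 1.59 copies per IGHV6 read and 1.40 to 1.96 per other read.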
